A study of Mus musculus with 6 samples.

Results

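The genes described here build microtubules and attach to them: α-, β- and γ-tubulins, microtubule-associated proteins (MAPs), plus-end binding proteins, stathmins, neurofilament and growth cone proteins, and the amyloid precursor protein (APP) family. They are 40 symbols, chosen by name with the PVR and Normal levels of these same libraries already known, so their differences between groups are given as a description of these libraries and not as evidence. The tables held 39 of them among 28043 genes, and Dcx was not analysed here. Of the 39, 35 passed a filter on low read counts and entered the test over all genes, and Tuba8, Stmn4, Nefl and Nefm did not. By textbook knowledge 22 of the 40 were classed as neuronal or brain-enriched, 17 as broadly expressed, and Tuba8 was kept apart.

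Polyadenylated RNA was sequenced from 3 PVR and 3 Normal libraries of mouse primary RPE cells. PVR is proliferative vitreoretinopathy, in which scar membranes form in the eye after injury or retinal detachment, and the series title speaks of traumatic PVR. RPE cells form the retinal pigment epithelium, the pigmented layer that serves the photoreceptors. Strain, age, sex, pooling and the way PVR was induced are not stated in the labels used here, and nothing says that the libraries came from separate animals, so a p-value here reflects library-to-library spread that could be technical. Values are read counts divided by a size factor per library, called normalised counts, with the mean ± SD of 3 libraries per group. A log2 change is the PVR mean minus the Normal mean of log2(normalised count + 1), a scale that compresses changes of genes with few reads. The words "rose" or "fell" mean an adjusted p under 0.05 over all 15766 genes tested (limma, Benjamini-Hochberg), with libraries taken as unpaired.

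The libraries held 15269983 to 17775427 assigned reads in PVR and 15929388 to 19173187 in Normal, and a count of 0 allows up to 3.42 normalised counts (3 reads, counting error only). The first principal component took 88.6% of the variance of the most variable genes and separated the groups, with PVR 3 the PVR library nearest to Normal, and Normal 2 stood apart on the second (7.02%). Over all genes, 2825 rose (17.9% of those tested) and 2033 fell (12.9%), and 1307 fell without Normal 1. RPE markers fell in 7 of 12 cases, none rose, and their summed level was 624417 to 687107 in PVR, against 908524 to 972617 in Normal. Best1, an RPE chloride channel, was scarce in both groups (7.56 to 22.8 in PVR and 10.3 to 13.6 in Normal). Of 16 macrophage and microglia markers 15 rose and 1 fell. Their summed level was 36865 to 90425 in PVR, lowest in PVR 3, against 10727 to 12148 in Normal. Fibroblast markers rose in 7 of 8 cases (summed level 17557 to 26678 in PVR, against 3153 to 7113 in Normal) and markers of dividing cells in 9 of 10 (977 to 1820.1 in PVR, against 406 to 422 in Normal). The remaining marker of dividing cells fell, and the median log2 change of the 10 was 3.68. Such sums weigh abundant markers most, so they do not give the change of a typical marker. In bulk RNA, fewer cells of a type and less RNA per cell cannot be told apart.

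Microtubules are hollow polymers of α- and β-tubulin that carry cargo, shape the cell and form the mitotic spindle, and γ-tubulin starts their growth. Vertebrates have several genes for α- and β-tubulin, the isotypes, whose proteins are nearly alike along the body and differ most at the acidic C-terminal tail, where modifying enzymes and motors act. Some isotypes and MAPs are found mainly in neurons, whose axons and dendrites depend on stable microtubule bundles, and others occur in nearly every cell.

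The ends of 6 β-tubulin coding sequences are shown because the isotypes separate there, and because the same likeness decides how far short reads can tell them apart. Each begins at codon 421, with codon 431 to the stop in capitals (GENCODE M21, GRCm38). The genome intervals are chr17:57080690-57080764 on the minus strand for Tubb4a, chr13:34074468-34074545 on the minus strand for Tubb2a, chr13:34127471-34127548 on the minus strand for Tubb2b, chr8:123421590-123421682 on the plus strand for Tubb3, chr17:35834982-35835056 on the minus strand for Tubb5 and chr2:25222308-25222385 on the minus strand for Tubb4b.
Tubb4a: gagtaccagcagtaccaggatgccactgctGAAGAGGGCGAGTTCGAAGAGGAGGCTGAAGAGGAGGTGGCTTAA
Tubb2a: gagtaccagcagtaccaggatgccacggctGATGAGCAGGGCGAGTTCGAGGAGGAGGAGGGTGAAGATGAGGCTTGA
Tubb2b: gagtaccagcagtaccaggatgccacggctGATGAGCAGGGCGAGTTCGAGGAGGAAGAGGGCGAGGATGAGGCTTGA
Tubb3: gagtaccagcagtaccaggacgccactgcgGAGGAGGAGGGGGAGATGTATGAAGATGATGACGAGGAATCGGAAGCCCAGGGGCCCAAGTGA
Tubb5: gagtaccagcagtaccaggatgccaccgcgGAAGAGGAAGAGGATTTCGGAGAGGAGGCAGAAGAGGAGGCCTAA
Tubb4b: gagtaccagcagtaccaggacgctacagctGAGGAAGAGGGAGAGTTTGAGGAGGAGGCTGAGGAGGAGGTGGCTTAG
Over the first 430 codons the 21 pairs of the 7 β-tubulin genes were 81.1% to 96.6% identical in nucleotides, with Tubb2a and Tubb2b the closest pair and Tubb4a and Tubb4b at 83.2%. Windows of 100 bases that also occur in transcripts of another gene made up 36.9% of the Tubb2a transcript and 27.8% of Tubb2b, mostly shared with each other, and 29.2% of Tubb4b, shared with the pseudogene Tubb4b-ps1. For Tubb3, Tubb4a, Tubb5 and Tubb6 that share was 0%. How the authors' counting treated reads that fit several genes is not given, so the levels of Tubb2a, Tubb2b and Tubb4b are uncertain to that extent.

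Of the 7 β-tubulins, 5 rose in PVR libraries and 1 fell, beside a background of 17.9% of all tested genes higher and 12.9% lower. Since the genes were listed from this comparison, nothing is read from the size of these counts. The genes that rose were Tubb4a, Tubb2b, Tubb3, Tubb2a and Tubb6, and Tubb4b fell. Tubb4a, a brain-enriched isotype abundant in neurons and in oligodendrocytes, lies at chr17:57080066-57087782 on the minus strand (GRCm38). It had 1477, 1271 and 1107 normalised counts in PVR 1 to 3, against 119, 159 and 162 in Normal 1 to 3. All 3 PVR libraries lay far above all 3 Normal libraries, with means of 1285 ± 185 in PVR and 147 ± 24.4 in Normal, a ratio of 8.76 and a log2 change of 3.13 (SE 0.16).

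Tubb2b, an isotype of developing and migrating neurons (chr13:34126748-34130466, minus strand), had 425, 248 and 272 normalised counts in PVR, against 34.0, 38.0 and 22.7 in Normal, a log2 change of 3.27 (SE 0.28). Its closest relative Tubb2a, a major β-tubulin of the brain (chr13:34074274-34078007, minus strand), had 3604, 3341 and 2535 in PVR, against 1355, 1222 and 1545 in Normal, a log2 change of 1.19 (SE 0.15). The groups did not overlap for either gene, and the step between groups was larger for Tubb2b, whose level was lower. Tubb3, the class III β-tubulin used as a marker of neurons (chr8:123411424-123422015, plus strand), rested on 23, 24 and 11 reads in PVR and on 3, 2 and 2 in Normal. The ratio of its summed, scaled reads was 8.99 with a counting interval of 4.10 to 23.3 (95%), and it passed the filter on low counts only through the PVR libraries. Tubb6, a broadly expressed and divergent isotype, had 1436, 993 and 846 in PVR, against 452, 468 and 505 in Normal, a log2 change of 1.16 (SE 0.18).

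Tubb4b fell and Tubb5 did not pass. Tubb4b, a widely expressed isotype that also builds cilia (chr2:25222160-25224702, minus strand), had 3283, 3473 and 3754 normalised counts in PVR, against 4625, 4702 and 5679 in Normal, a log2 change of -0.51 (SE 0.11). Every PVR value was below every Normal value. Tubb5, a ubiquitous isotype used by dividing cells (chr17:35833921-35838306, minus strand), had 1950.3, 2943 and 2030 in PVR, against 1588, 1727 and 2157 in Normal. These ranges overlapped, and its log2 change of 0.33 (SE 0.18) did not pass.

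**Figure D1:**
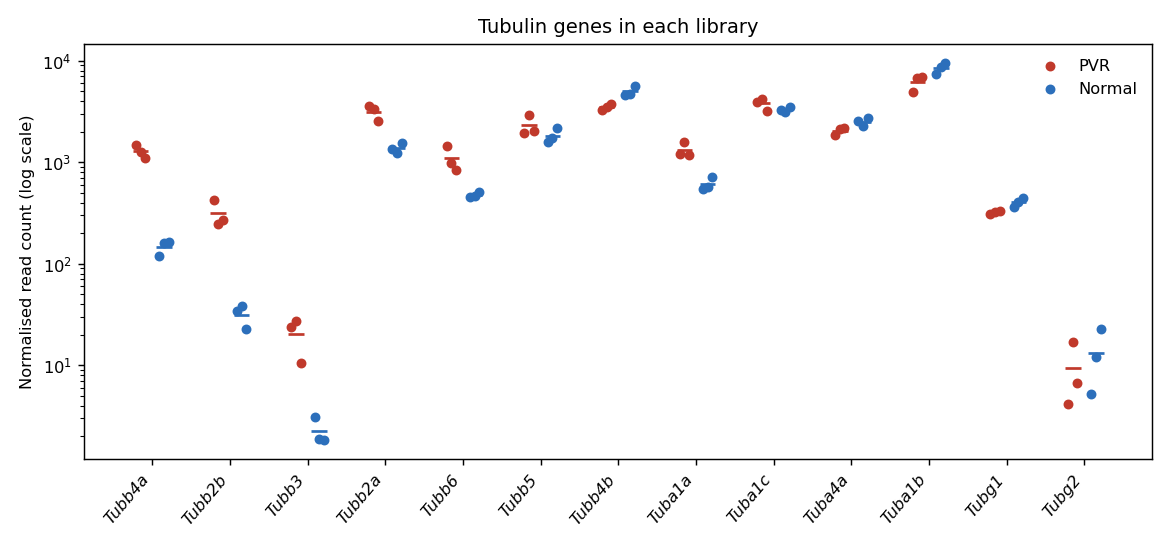
Normalised read counts (log axis) of the tubulin genes in each library, PVR left of Normal, points being libraries and bars group means. The PVR points of Tubb4a, at 1107 to 1477, stand clear of the Normal points at 119 to 162, while those of Tubb5 overlap.

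Levels of different listed genes were ranked and summed only per kilobase of exon, while the sums of cell type markers are of normalised counts without division by length. On that scale the summed β-tubulin level was 5847, 5724 and 4951 in PVR libraries, against 3789, 3811 and 4619 in Normal libraries, 1.35 times as high. The 4 neuronal isotypes Tubb2a, Tubb2b, Tubb3 and Tubb4a made up 53.0%, 48.4% and 44.3% of that sum in PVR and 24.1%, 22.3% and 22.6% in Normal. Tubb2a took 35.4 ± 3.31% in PVR, against 20.97 ± 1.16% in Normal. Tubb4b took 30.8 ± 4.94% in PVR and 58.8 ± 0.325% in Normal, where it was the leading isotype. In PVR Tubb2a was above Tubb4b in PVR 1 and PVR 2 and below it in PVR 3 (31.8% against 36.3%), so no order between that pair is drawn. Tubb4a had 10.4 ± 0.770% in PVR and 1.62 ± 0.239% in Normal, and the ratio of Tubb4a to Tubb4b per kilobase was 0.347 ± 0.0727 in PVR and 0.0275 ± 0.00392 in Normal. Tubb5 held 12.6 ± 2.73% in PVR and 13.4 ± 0.741% in Normal. Tubb3 stayed a trace in both groups, at 0.195 ± 0.0741% in PVR and 0.0302 ± 0.0119% in Normal. Most of the difference in the neuronal share came from Tubb2a: with Tubb2a counted as broadly expressed, the PVR minus Normal difference was 11.1 percentage points in place of 25.6.

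**Figure D2:**
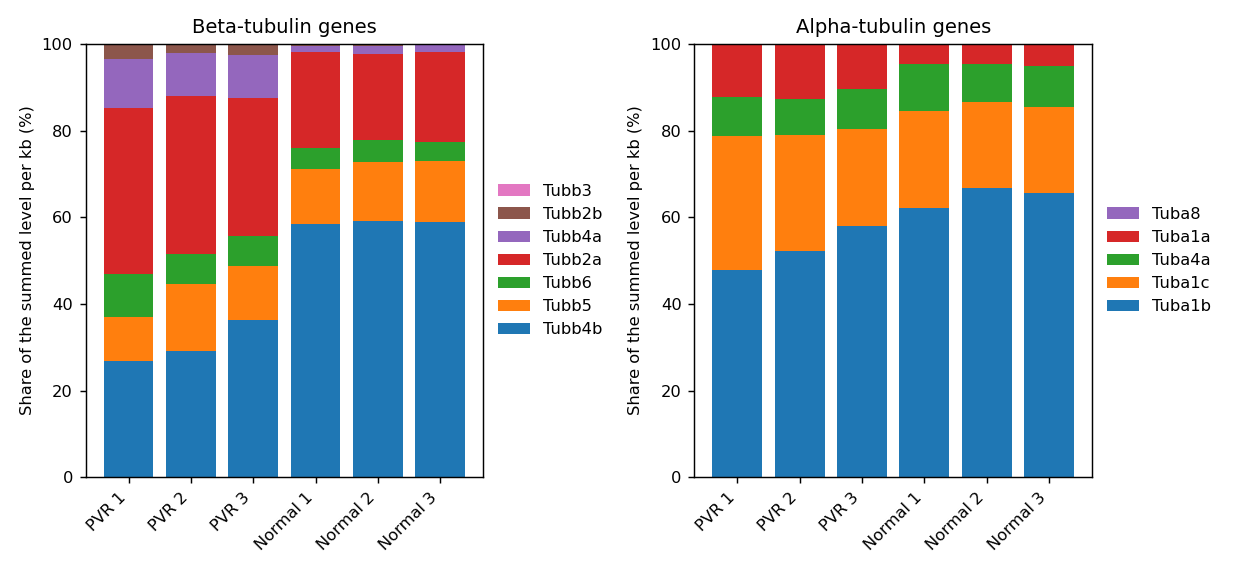
Share of each isotype in the summed β-tubulin and α-tubulin level per kilobase of exon (percent) for each library, PVR libraries left of Normal libraries. Tubb4b fills 58.8% of the β-tubulin level on average in Normal and 30.8% in PVR, and Tubb2a and Tubb4a widen in PVR.

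The promoters of Tubb4a and Tubb4b are printed because these relatives went opposite ways. The windows run from 250 bases before to 50 bases after the RefSeq start (GRCm38.p6), chr17:57087551-57087850 for Tubb4a and chr2:25224653-25224952 for Tubb4b, both on the minus strand. Capitals mark the motifs GGGCGG (the GC box), CCAAT (the CCAAT box), TATAAA (the TATA box) and GGAAA (the core bound by NFAT factors), on either strand.
Tubb4a promoter: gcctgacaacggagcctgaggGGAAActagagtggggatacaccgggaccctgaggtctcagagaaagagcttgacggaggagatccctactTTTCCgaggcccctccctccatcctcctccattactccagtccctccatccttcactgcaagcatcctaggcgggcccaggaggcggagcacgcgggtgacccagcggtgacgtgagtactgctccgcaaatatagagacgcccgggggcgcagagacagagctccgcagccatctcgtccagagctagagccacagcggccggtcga
Tubb4b promoter: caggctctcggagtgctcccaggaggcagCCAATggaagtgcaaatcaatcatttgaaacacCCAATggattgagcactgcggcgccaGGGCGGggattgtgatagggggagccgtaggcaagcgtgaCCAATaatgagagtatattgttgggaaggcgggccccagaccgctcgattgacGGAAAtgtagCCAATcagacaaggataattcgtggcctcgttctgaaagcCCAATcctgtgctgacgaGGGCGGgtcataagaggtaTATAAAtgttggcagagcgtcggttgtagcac
The Tubb4a window held 2 GGAAA and none of the other 3 motifs, and the Tubb4b window held 2 GGGCGG, 5 CCAAT, 1 TATAAA and 1 GGAAA. The TATAAA of Tubb4b began 18 bases after the RefSeq start, not before it. Over all 32851 RefSeq promoter entries, 35.7% held GGGCGG, 37.4% CCAAT, 13.6% TATAAA and 61.3% GGAAA. Of the 40 genes 28 had an entry, Dcx among them, and 20 of these held GGGCGG, 12 CCAAT, 5 TATAAA and 15 GGAAA. A gene was counted if any of its entries held the motif, and the 32851 entries belong to 27025 genes. Counts of genes and shares of entries are therefore in unlike units and are not compared. Among the 11 genes that rose and had an entry, 9 held GGGCGG, 4 CCAAT, 2 TATAAA and 8 GGAAA. Among the 5 that fell, these numbers were 4, 3, 2 and 1 in the same order. TTCAGCACC, one part of the RE1 element bound by the neuronal gene repressor REST, was in none of the 28 and in 0.371% of all entries. A match of letters is a description of these windows and not a binding site. Entries for Gap43, Map6, Mapre2, Mapt, Nefl, Nefm, Stmn1, Stmn2, Stmn4, Tubb2b, Tubb6 and Tubg1 were missing.

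Among 5 α-tubulins, Tuba1a rose and Tuba1b fell. Tuba1a is the isotype of young, growing neurons (chr15:98949837-98953703, minus strand), and it had 1215, 1589 and 1183 normalised counts in PVR, against 547, 574 and 711 in Normal, a log2 change of 1.12 (SE 0.15). Its neighbour Tuba1b, a ubiquitous isotype (chr15:98931425-98934565, minus strand), had 4968, 6761 and 6887 in PVR, against 7481, 8667 and 9539 in Normal, a log2 change of -0.47 (SE 0.15). The groups did not overlap for either, but the call for Tuba1b was lost without PVR 1 (log2 change -0.32), without Normal 2 (-0.46), without Normal 3 (-0.39) and without Normal 2 and PVR 3 together (-0.54). Tuba1c, also ubiquitous (chr15:99029891-99038110, plus strand), had 3223 to 4234 in PVR and 3138 to 3538 in Normal, which overlapped. Tuba4a, a widely expressed isotype encoded without a final tyrosine, had 1835, 2137 and 2162 in PVR, against 2529, 2274 and 2704 in Normal. These did not overlap, yet the log2 change of -0.29 (SE 0.11) passed only when libraries were scaled by their totals.

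As a share of the α-tubulin level per kilobase, Tuba1a took 11.8 ± 1.24% in PVR and 4.80 ± 0.252% in Normal, and Tuba1b took 52.7 ± 5.12% in PVR and 64.8 ± 2.38% in Normal. The summed α-tubulin level was 6261 ± 691 in PVR and 7037 ± 678 in Normal, which overlapped. Tuba1a, Tuba1b and Tuba1c share 65.1%, 69.5% and 53.4% of their 100-base windows with other genes, so how reads were divided among them is uncertain. Tuba4a shares 1379 exon bases with Stk16 on the opposite strand, and the use of strand in counting is not given. Tuba8, a divergent isotype, had 6, 0 and 16 reads in PVR and 0, 2 and 7 in Normal. The γ-tubulin gene Tubg1, which nucleates microtubules at centrosomes, had 311, 325 and 330 normalised counts in PVR, against 364, 407 and 447 in Normal. Its groups did not overlap, and its log2 change of -0.33 (SE 0.13) passed only with scaling by library totals. Tubg2, the brain-enriched γ-tubulin, lay at 4.12 to 17.1 in PVR and 5.15 to 22.7 in Normal.

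Of the 10 tested structural MAPs and related genes, Map1a, Map1b and Map4 rose, Map7 and Dclk1 fell, and 5 did not pass. Map1a, which binds microtubules in mature dendrites and axons (chr2:121289600-121310832, plus strand), had 2903, 2449.9 and 2399.9 normalised counts in PVR, against 494, 588 and 549 in Normal. The groups were far apart, at 2584 ± 277 in PVR and 544 ± 47.4 in Normal, a ratio of 4.75 and a log2 change of 2.25 (SE 0.12). Per kilobase of the union of annotated exons, Map1a had the highest level of these 10 genes in PVR (212 ± 22.8). In Normal it had 44.7 ± 3.90 and the fifth place. Map4, the main MAP of non-neuronal cells, had 2232, 2210.7 and 1696 in PVR, against 985, 1118 and 1146 in Normal, a log2 change of 0.91 (SE 0.13). The ratio of Map1a to Map4 per kilobase was 1.59 ± 0.193 in PVR and 0.625 ± 0.0293 in Normal. Both the place and the ratio depend on the length used. The union of exons has 15143 bases for Map4 and 12166 for Map1a, but the longest transcripts have 6091 and 11825. Other lengths were not tried for these genes, so no order of Map1a and Map4 is drawn.

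Map1b, which acts in growing axons, had 602, 763 and 496 normalised counts in PVR, against 131, 291 and 117 in Normal, a log2 change of 1.89 (SE 0.36). Normal 2 was high among the Normal libraries, and without Normal 2 and PVR 3 the log2 change was 2.44. Map2, the classical dendrite MAP, showed the same library more sharply, with 59.7, 91.1 and 58.6 in PVR, against 7.21, 69.5 and 9.97 in Normal. Its groups overlapped through Normal 2, and its log2 change of 1.90 (SE 0.79) had a limma adjusted p of 0.112. With the replicate number as a block the adjusted p of limma was 0.0190, and without Normal 2 it was 0.000586 (log2 change 2.87). Snap25, a presynaptic protein of neurons, had 11, 14 and 7 reads in PVR and 0, 8 and 1 in Normal. Normal 2 was again the highest Normal library. Reads in Normal 1 to 3 were nominally highest in Normal 2 for Stmn2 (4, 5 and 3) and Stmn4 (2, 5 and 0). They were not for Tubb3 (3, 2 and 2), Stmn3 (6, 4 and 7), Gap43 (10, 6 and 3) and Nefm (5, 0 and 2). With so few reads these orders are uncertain. The summed level of fibroblast markers was likewise highest in Normal 2 among Normal libraries (5256, 7113 and 3153). Whether neurons or fibroblasts in that library had a part in the Map1b and Map2 values was not tested.

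Map6, which protects microtubules from cold in neurons, had 93.7, 105 and 73.7 normalised counts in PVR, against 41.2, 62.0 and 59.8 in Normal. These did not overlap, and the log2 change of 0.74 (SE 0.26) passed only without PVR 3 (log2 change 0.88). Mapt, which encodes the axonal MAP tau, was a trace in both groups, at 6.61 to 12.4 in PVR and 11.3 to 13.0 in Normal. Map1s, a broadly expressed relative of Map1a and Map1b, had 535 to 670.3 in PVR and 478 to 543 in Normal, which overlapped. Mid1, a ubiquitin ligase that binds microtubules, overlapped too (134 to 235 in PVR and 104 to 157 in Normal) and shares 20.3% of its 100-base windows with another gene.

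Map7 and Dclk1 fell. Map7, an epithelial MAP that recruits kinesin-1, had 862, 768 and 911 normalised counts in PVR, against 1378, 1320 and 1242 in Normal, a log2 change of -0.63 (SE 0.11). Dclk1, the doublecortin-like kinase of neurons and some epithelial cells, had 928, 1028 and 1209 in PVR, against 1599, 1841 and 2072 in Normal, a log2 change of -0.80 (SE 0.13). It was the only one of the 18 tested neuronal or brain-enriched genes that fell.

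**Figure D3:**
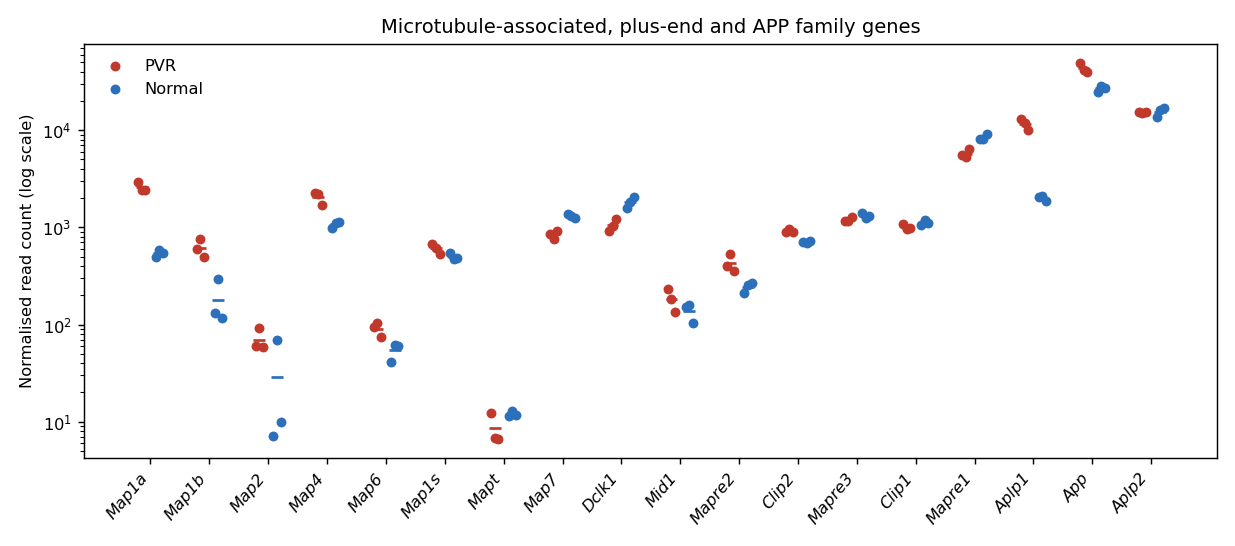
Normalised read counts (log axis) of MAP, plus-end and APP family genes in each library, PVR left of Normal, points being libraries and bars group means. Map1a and Aplp1 lie apart between groups, and Normal 2 lifts the Normal points of Map2 to 69.5 and of Map1b to 291.

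Plus-end proteins ride on growing microtubule tips. Mapre1 encodes EB1, the core tip tracker, and had 5492, 5339 and 6331 normalised counts in PVR, against 8071, 8049 and 9158 in Normal, a log2 change of -0.56 (SE 0.11). Mapre2, which encodes EB2, went the other way, with 396, 527 and 359 in PVR, against 210.3, 253 and 266 in Normal, a log2 change of 0.80 (SE 0.17). Neither gene's groups overlapped. Per kilobase Mapre1 remained far above Mapre2, with a Mapre2 to Mapre1 ratio of 0.0581 ± 0.0163 in PVR and 0.0221 ± 0.00206 in Normal. Mapre3, the brain-enriched EB3, had 1152 to 1282 in PVR and 1247 to 1411 in Normal and did not pass. Clip2, the neuronal linker CLIP-115, had 906, 973 and 902 in PVR, against 712, 697 and 727 in Normal, a log2 change of 0.38 (SE 0.10). That call was lost without PVR 2 (0.34), without Normal 2 (0.36) and without Normal 2 and PVR 3 together (0.38). Its broadly expressed relative Clip1 had 959 to 1084 in PVR and 1045 to 1181 in Normal and did not pass.

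Stathmins bind free tubulin and favour the shrinking of microtubules. Stmn1, found in many dividing cells, had 239, 269.9 and 222 normalised counts in PVR, against 161, 235 and 184 in Normal, and these overlapped. The neuronal Stmn2, a growth cone protein also called SCG10, had 41, 87 and 49 reads in PVR and 4, 5 and 3 in Normal. Its ratio of scaled reads was 16.0 with a counting interval of 8.93 to 31.5, and its log2 change was 3.63 (SE 0.46). Stmn3 had 69, 24 and 70 reads in PVR and 6, 4 and 7 in Normal, a ratio of 10.4 (6.30 to 18.3) and a log2 change of 3.04 (SE 0.47). Both reached the filter on low counts only through PVR libraries, and their PVR libraries were not in the same order, with PVR 2 highest for Stmn2 and lowest for Stmn3. Stmn4 had 21, 8 and 5 reads in PVR and 2, 5 and 0 in Normal, a ratio of 5.27 (2.30 to 14.1), and was not tested. Per kilobase Stmn3 had 48.3 ± 21.1 in PVR and 4.76 ± 1.30 in Normal, below Stmn1 at 127 ± 12.7 in PVR and 101 ± 19.8 in Normal.

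The neurofilament and growth cone genes were scarce. Gap43, a growth cone membrane protein, had 30, 13 and 15 reads in PVR and 10, 6 and 3 in Normal, a ratio of 3.31 (1.94 to 5.89). Its limma adjusted p was 0.0572, 0.0327 with the replicate number as a block and 0.0457 without Normal 1 (log2 change 1.996, against 1.60 with all libraries). Nefm, the medium neurofilament chain, had 7, 11 and 8 reads in PVR and 5, 0 and 2 in Normal, a ratio of 4.03 (1.70 to 11.0) without a test. Nefl, the light chain, had 1, 2 and 0 reads in PVR and 0 in every Normal library, all within the floor of 3 reads, so no fold is given. The exons of Nefl and Nefm share 1108 annotated bases on opposite strands.

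Markers of retinal neurons were mixed beside these values. Slc17a6, Pou4f1, Pou4f2 and Isl1, which mark ganglion cells and other retinal neurons, had 0 reads in every Normal library and at most 4 in any PVR library. Among 18 measured markers 6 had enough reads to be tested, of which Thy1 and Rbpms rose and Syt1 fell. Thy1, a surface protein of ganglion cells and of several other cell types, had 207, 275 and 120 reads in PVR and 31, 55 and 12 in Normal. Rbpms had 227, 213 and 199 reads in PVR and 82, 124 and 112 in Normal, and Syt1, a synaptic vesicle protein, 277, 261 and 513 in PVR and 1126, 1160 and 1374 in Normal. Prox1, untested, had 13, 24 and 9 reads in PVR and 3, 2 and 2 in Normal. The summed level of the 18 was 7147 to 8885 in PVR and 7717 to 8752 in Normal, most of it from the glycine transporter Slc6a9 (6144 to 8078 in PVR and 6386 to 7314 in Normal). Any part of retinal neurons in the stathmin, Tubb3, neurofilament and Gap43 values was not tested. Photoreceptor markers summed to 2858 to 3903 in PVR and 4497 to 5564 in Normal, a sum carried mostly by Rom1, the 1 marker of 12 that fell. None of the 12 rose, and their median log2 change was 0.64.

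**Figure D4:**
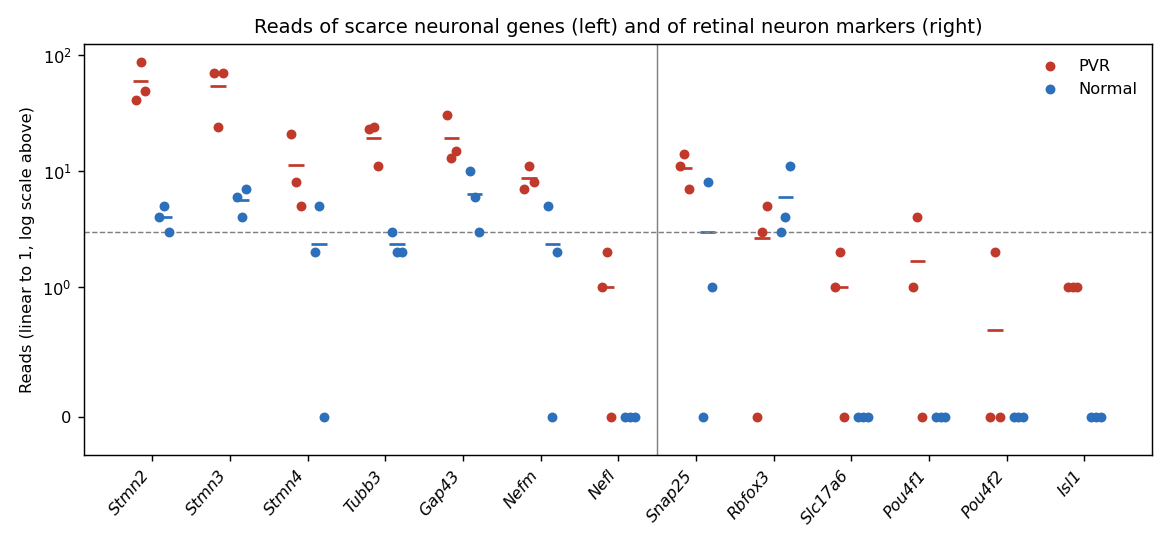
Reads per library (axis linear to 1 and logarithmic above) of scarce neuronal genes on the left and of retinal neuron markers on the right, PVR left of Normal, with points for libraries, bars for group means and a dashed line at the floor of 3 reads. Stmn2 and Stmn3 reach 24 to 87 reads in PVR and 3 to 7 in Normal, while Nefl stays at 0 to 2 reads in all 6 libraries.

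APP and its relatives are membrane proteins of synapses and many other cells, cut by secretases. Aplp1, the member found mainly in the nervous system (chr7:30434982-30445535, minus strand), had 13120.5, 11945 and 9940.5 normalised counts in PVR, against 2069.6, 2114 and 1885 in Normal. The groups lay far apart, at 11669 ± 1608 in PVR and 2023 ± 122 in Normal, a ratio of 5.77 and a log2 change of 2.52 (SE 0.12). Unlike the stathmins, this neuronal gene was abundant, since per kilobase it had 3868 ± 533 in PVR and 671 ± 40.3 in Normal. App itself had 49329, 41449 and 39257 in PVR, against 24954, 28586 and 27396 in Normal, a log2 change of 0.68 (SE 0.12). Aplp2, the ubiquitous relative, had 15424, 14844 and 15229 in PVR, against 13643, 15936 and 16827 in Normal. Its groups overlapped, with a log2 change of -0.02 (SE 0.11). Per kilobase Aplp1 was the lowest of the 3 genes in Normal and at a level like that of App in PVR, with an Aplp1 to App ratio of 1.16 ± 0.0762 in PVR and 0.324 ± 0.0308 in Normal. The ratio depends on the length used. The union of exons has 12996 bases for App and 3017 for Aplp1, but the longest transcripts have 8167 and 2472. Other lengths were not tried for these genes, so no order of Aplp1 and App in PVR is drawn.

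Over the 35 tested genes, 15 rose (42.9%, beside 17.9% of all genes), 5 fell (14.3%, beside 12.9%) and 15 did not pass, with a median log2 change of 0.40, against -0.02 over all genes. Among neuronal or brain-enriched genes, 11 of 18 tested rose (13 with the replicate block) and 1 fell, with a median of 1.74. Among broadly expressed genes, 4 of 17 rose (Tubb6, Map4, Mapre2 and App) and 4 fell (Tuba1b, Tubb4b, Map7 and Mapre1), with a median of 0.18. PVR and Normal values did not overlap in 24 of the 35, beside 48.0% of all tested genes. These counts rest on the choice of genes and on the filter on low counts, so no difference between the classes is read from them. Tubb3, Stmn2 and Stmn3 passed that filter through PVR libraries only. Map2 and Gap43 reached it in 3 PVR libraries but in only 1 Normal library, and Mapt in 3 Normal libraries but in only 1 PVR library. With a stricter class, which moves 4 of the tested genes from neuronal to broad, 8 of 14 and 7 of 21 rose. The call held under all 17 ways of fitting for 17 of the 20 called genes. Of the 15 genes that rose, 12 had their lowest PVR level in PVR 3. That library was also the PVR library nearest to Normal on the first principal component. The share of all risen genes lowest in PVR 3 was not counted, so nothing is read from the 12. The summed levels of macrophage and fibroblast markers were also lowest in PVR 3 among PVR libraries. Any part of those cells in the tubulin, MAP and APP values was not tested.

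**Figure D5:**
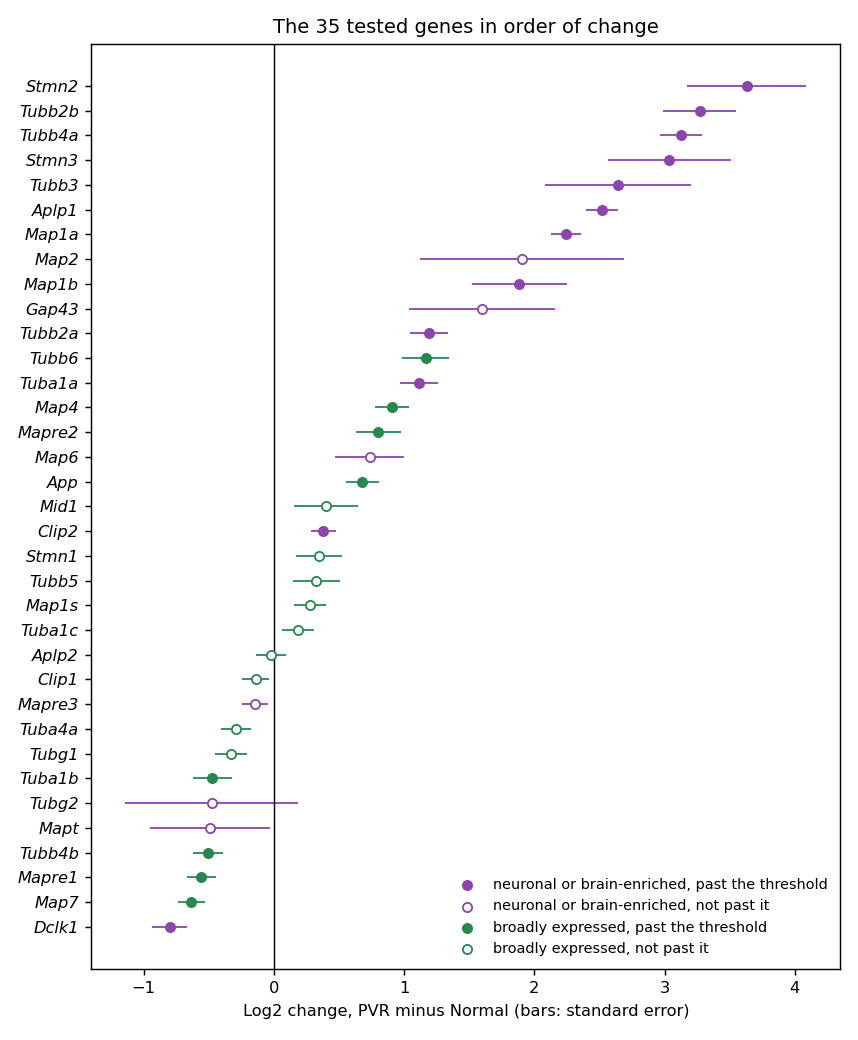
Log2 change (PVR minus Normal, log2(normalised count + 1) scale) with standard error for the 35 tested genes, by class. Neuronal or brain-enriched genes run from Dclk1 at -0.80 to Stmn2 at 3.63, and broadly expressed genes from Map7 at -0.63 to Tubb6 at 1.16.

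A wider set of 185 genes of the same machinery, also listed with earlier results known, gave 161 tested genes, of which 31 rose (19.3%, beside 17.9% of all genes) and 30 fell (18.6%, beside 12.9%). Leaving out PVR 3 left 26 lower calls, and leaving out any other library left 16 to 19. Of the 26 folding and modification genes tested, 3 rose (11.5%) and 6 fell (23.1%), with a median log2 change of -0.21. Agtpbp1, a carboxypeptidase that removes glutamates from tubulin, had 1295, 1837 and 1303 normalised counts in PVR, against 322, 311 and 328 in Normal, a log2 change of 2.18 (SE 0.14, limma adjusted p = 2.35e-05). Ttll7, which adds glutamates to β-tubulin, had 122, 170 and 145 in PVR, against 33.0, 54.6 and 49.8 in Normal, a log2 change of 1.66 (SE 0.26). So both an enzyme that adds glutamates and one that removes them rose. Vash2, which removes the final tyrosine of α-tubulin, rose on few reads (30, 38 and 22 in PVR, 4, 12 and 8 in Normal), and not without PVR 2 (limma adjusted p = 0.0573). Svbp, the partner of that enzyme, fell (log2 change -0.88, SE 0.13), as did Ttl, the ligase that restores the tyrosine (-0.48, SE 0.10).

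Of 14 tested genes of the γ-tubulin ring, its centrosomal scaffolds and the remaining tubulins, none rose and 3 fell (21.4%, beside 12.9% of all genes). All 3 belong to the ring, which holds γ-tubulin at centrosomes, with Tubgcp3 at 1096, 1212 and 1319 in PVR, against 2170, 1911 and 1835 in Normal (log2 change -0.71, SE 0.11). Tubgcp4 (-0.53) and Tubgcp6 (-0.40) also fell. The call for Tubgcp4 was lost without PVR 1, PVR 3, Normal 1 or Normal 3 (log2 change -0.52 to -0.43), and that for Tubgcp6 without any library other than PVR 3 (-0.42 to -0.35). The Tubgcp6 call was also lost without Normal 2 and PVR 3 together and with no filter. Severing and depolymerising proteins gave 3 higher (33.3%, beside 17.9% of all genes) and 1 lower (11.1%, beside 12.9%) of 9. Of the 3 higher genes, Kif2c and Fignl1 passed the filter on low counts only through PVR libraries. Kif2c, a kinesin that dismantles microtubules in mitosis, had 16.5, 34.2 and 17.9 in PVR, against 0, 1.85 and 2.72 in Normal, and Fignl1 13.4, 31.9 and 20.8 in PVR, against 1.03, 4.63 and 4.53 in Normal. The summed level of markers of dividing cells, given above, was also highest in PVR 2, and any part of dividing cells in these values was not tested. Kif2a, the relative of Kif2c found in neurons and other cells, rose by less (log2 change 0.49) and Katnal2, a katanin relative, fell (-0.80). The call for Fignl1 was lost without PVR 2 (log2 change 2.15, against 2.45 with all libraries) and that for Katnal2 without Normal 3 (-0.73). The call for Kif2a was lost without PVR 1, PVR 2, Normal 1 or Normal 2 (0.39 to 0.49).

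Of 32 other microtubule-associated and end-binding genes 9 rose (28.1%, beside 17.9% of all genes) and 6 fell (18.8%, beside 12.9%). Clip3, a relative of Clip1 and Clip2, had 564, 608 and 561 normalised counts in PVR, against 217, 235 and 243 in Normal (log2 change 1.31, SE 0.12, limma adjusted p = 8.95e-05). Dclk2, the nearest relative of Dclk1, rose (2.17, SE 0.32) where Dclk1 fell, with 141, 161 and 136 in PVR, against 47.4, 33.3 and 19.9 in Normal. Map7d1, a relative of Map7, likewise rose (1.36, SE 0.18) where Map7 fell, with 4276, 2609 and 2671 in PVR, against 1299, 1131 and 1190.0 in Normal. Map6d1, a relative of Map6, rose (0.89, SE 0.14), and Camsap2, which guards minus ends, fell (-0.54, SE 0.10). Of 20 transport kinesin genes 1 rose (5%, beside 17.9% of all genes) and 5 fell (25%, beside 12.9%). Kif21b rose (0.88, SE 0.17), and Klc4, a kinesin light chain, was among those that fell (-0.60, SE 0.11). Of 23 dynein and dynactin genes 2 rose (8.70%, beside 17.9% of all genes) and 1 fell (4.35%, beside 12.9%). The light chain Dynll1 (0.78, SE 0.14) and the light intermediate chain Dync1li1 (0.72, SE 0.14) rose. Dynll2 fell (-0.46), a call that was lost with TMM scaling, with edgeR and without any library other than PVR 1 (log2 change -0.51 to -0.28). The Dynll2 call was also lost without Normal 2 and PVR 3 together.

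Neuronal genes outside the listed 40 went both ways, with 6 of 16 tested higher (37.5%, beside 17.9% of all genes) and 6 lower (37.5%, beside 12.9%). Uchl1, a ubiquitin hydrolase abundant in neurons, had 130, 109 and 76.5 normalised counts in PVR, against 8.25, 12.0 and 9.97 in Normal (log2 change 3.24, SE 0.33, limma adjusted p = 0.000162). It reached the filter on low counts in 3 PVR libraries but in only 1 Normal library, so it was tested through PVR. Nefh, the heavy neurofilament chain, had 28, 28 and 23 reads in PVR and 1, 1 and 6 in Normal, and it too passed that filter only through PVR libraries. Marcks, an actin-binding substrate of protein kinase C, also rose (2.06, SE 0.25), as did Marcksl1 and Nsg1. Against these, Nsg2, a neuronal endosome protein, had 210.1, 199 and 292 in PVR and 972, 881 and 956 in Normal (log2 change -2.02, SE 0.15, limma adjusted p = 4.31e-05). Basp1, Dpysl2 and Crmp1 fell too.

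Among genes that process APP or bind it, 7 of 21 rose (33.3%, beside 17.9% of all genes) and 2 fell (9.52%, beside 12.9%). Itm2b, a membrane protein that binds APP, had 11399, 11958 and 8726 normalised counts in PVR, against 5129, 6011 and 5637 in Normal (log2 change 0.92, SE 0.14). Ncstn, the nicastrin subunit of γ-secretase, rose (0.64, SE 0.13), and so did Bace2, a β-secretase relative (0.60, SE 0.15), and Apba1, an APP adaptor (1.46, SE 0.37). Aph1b, another γ-secretase subunit, fell (-0.35, SE 0.11). The call for Bace2 was lost without Normal 1 (log2 change 0.48) and without Normal 2 and PVR 3 together. That for Apba1 was lost without PVR 1 (1.40) or PVR 2 (1.34). That for Aph1b was lost when any of the 6 libraries was left out (-0.39 to -0.27). The Aph1b call was also lost without Normal 2 and PVR 3 together and with no filter.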

How the data were processed

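Per the labels, the samples were 3 PVR and 3 Normal libraries of polyadenylated RNA, extracted with TRIzol, grouped by sample titles. The deposited values are a signal per gene symbol: the authors' read counts after division by a size factor for each library, since all values gave whole reads within 0.001 reads. The factors equalled DESeq2 median-ratio factors. The submitters' processing notes list mm10 and DESeq2 with neither role nor version, and per these notes mm10 was taken as the build. The aligner, the counter, the strand setting and the annotation were not given in the sources used here. Intervals and floors cover counting error only, as the reads carry no molecular identifiers. All pairs of libraries differed beyond sampling noise (chi-square per gene at least 17.8). Of 28043 names 27362 matched GENCODE M21, and 26 were dates.

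All genes were tested in R 4.3.3 with limma 3.58.1, fitted to log2(value + 1) with trend and robust moderation and no block, for genes passing filterByExpr of edgeR 4.0.16 (minimum count 10). The genes, lists and classes were chosen with earlier results of these data known. All 40 listed genes are described. Of the other genes of the machinery, up to 4 called genes with the smallest p per list are named, and further called genes after their values were seen. Alternatives were pseudocounts of 0.5 and 5, no filter, 1 CPM, library totals, TMM, edgeR quasi-likelihood, DESeq2 1.42.0 and a replicate block. Others were leaving out each library, leaving out Normal 2 with PVR 3, a stricter class and, for the tubulin shares only, other gene lengths. Same-numbered PVR and Normal libraries deviated together from their group means (correlations 0.206, 0.195 and 0.179, other pairs -0.137 to -0.0689). The labels state no pairing, and the main fit used none, so a pairing by number enters only through the replicate block. With that block 17 listed genes rose in place of 15, and 5328 genes in all were called in place of 4858. Levels per kilobase used the union of annotated exons. Scripts were tested on simulated data. Sequences are from GENCODE M21 and RefSeq (GRCm38.p6). Tables and plots used matplotlib 3.10.9, scipy 1.17.1, numpy 2.4.6 and pandas 2.3.3 under Python 3.11.15.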

Additional observations from a re-analysis of the deposited data

How the results depend on the processing

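The numbers of listed genes called higher (15) and lower (5) lay between 14 and 17 and between 4 and 7 over the 17 ways of fitting, and no called gene turned its sign. Aplp2, which was not called, had a log2 change of -0.02, which was 0.00117 without Normal 2 and ranged from -0.111 (without Normal 1) to 0.0404 (without Normal 3) when each library was left out. With a replicate block, which raised the higher calls to 17, the adjusted p of Map2 and Gap43 passed, as given in the report, and the block changed no other call among the 35 genes. edgeR and DESeq2 called the same 20 genes as limma. Leaving out each library gave 2193 to 2844 higher and 1307 to 2026 lower genes in all, with 1307 without Normal 1, and 16 to 26 lower genes in the wider set of the machinery. Under the stricter class 7 broadly expressed genes rose in place of 4. The difference in the neuronal β-tubulin share was 11.13 percentage points with Tubb2a counted as broadly expressed, against 25.6, and the difference in the Tuba1a share was 5.855 points without division by length, against 6.96. Scaling by library totals shifted the median log2 change of all genes by -0.074 and gave 2538 higher and 2464 lower genes. Depth limits Tubb3, Stmn2, Stmn3, Gap43 and the untested Stmn4, Nefl, Nefm and Tuba8. For Tubb3 the log2 change was 1.75 with a pseudocount of 5 and 3.20 with DESeq2, and Tubb3 was not tested at 1 CPM. The cause of these shifts was not tested.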
